A study of Homo sapiens with 4 samples.

Results

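The tubulin isotypes of SK-N-SH cells were 10 genes chosen by symbol, the 6 beta-tubulin genes *TUBB2B*, *TUBB2A*, *TUBB3*, *TUBB*, *TUBB4B* and *TUBB6* and the 4 alpha-tubulin genes *TUBA1A*, *TUBA1B*, *TUBA1C* and *TUBA4A*. They made up 11 gene IDs (*TUBB3* had a second one) of the 57820 in the table, and transcript counts were summed per gene ID. The symbols were chosen with the difference between the groups already known, so the values of these genes in that contrast are given as a description, without a test. SK-N-SH is a human neuroblastoma cell line that holds neuroblastic and substrate-adherent cells. RNA-seq was performed on 4 libraries of this line. In 2 libraries the cells carried the empty lentivirus vector (vector control; their titles read WT, whereas their treatment label names the vector), and in the other 2 a lentivirus with the cDNA of the long noncoding RNA *RP5-998N21.4* under the EF1a promoter (OE). Both groups were thus transduced, nothing in the sources says that the libraries of a group came from separate cultures, and the spread between them may be technical.

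Microtubules are hollow polymers of alpha- and beta-tubulin dimers. Human cells make these from several near-identical genes, the isotypes, whose proteins differ most in the acidic tail at the C terminus, where motors, associated proteins and modifying enzymes act. *TUBB3* and *TUBB2B* are known as isotypes of neurons, *TUBB*, *TUBB4B* and *TUBB6* are expressed more widely, and free tubulin feeds back on the stability of tubulin mRNAs.

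The last 60 coding bases before the stop codon, which encode the tail, are shown for each beta gene to compare them there, 5′ to 3′, from the canonical transcripts of the GENCODE annotation on GRCh37 (the hg19 build of the files). Capitals mark bases that differ from *TUBB2B* in a pairwise alignment.
TUBB2B: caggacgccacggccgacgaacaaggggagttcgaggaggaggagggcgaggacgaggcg
TUBB2A: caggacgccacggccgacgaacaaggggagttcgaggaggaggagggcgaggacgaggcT
TUBB3: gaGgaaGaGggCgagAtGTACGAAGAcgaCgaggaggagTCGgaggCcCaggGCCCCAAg
TUBB: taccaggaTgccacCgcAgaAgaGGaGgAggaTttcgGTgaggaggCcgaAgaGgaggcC
TUBB4B: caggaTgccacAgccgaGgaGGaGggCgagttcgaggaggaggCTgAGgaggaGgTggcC
TUBB6: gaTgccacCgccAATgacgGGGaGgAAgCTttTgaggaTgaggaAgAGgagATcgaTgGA
*TUBB2A* differed from *TUBB2B* at only 1 of these bases, so the tail hardly separates this pair. *TUBB4B* differed at 14, *TUBB* at 15, *TUBB6* at 23 and *TUBB3* at 27. Over the whole coding sequence of 1335 bases, *TUBB2A* and *TUBB2B* differed by 24 substitutions, of which 22 lay at the last position of a codon, and the longest identical run was 725 bases (98.2% identity). The other beta genes were 84.9% (*TUBB*) to 88.1% (*TUBB3*) identical to *TUBB2B*. Of all windows of 150 bases of the *TUBB2B* transcript, 41.6% also occurred in another tubulin transcript, and of *TUBB2A* 48.7%, nearly all of them shared between these 2 genes. The share was 2.31% for *TUBB3*, 2.66% for *TUBB*, 8.01% for *TUBA1A*, 19.1% for *TUBA1B* and 7.22% for *TUBA1C*, and no window of *TUBB4B*, *TUBB6* or *TUBA4A* was shared. Reads from such stretches can be placed on either copy, so *TUBB2A* and *TUBB2B* were also read as a sum.

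The pair lies on the minus strand of chromosome 6 (GRCh37), *TUBB2A* at 3153731 to 3157778 and *TUBB2B* at 3223558 to 3231964. They are 65779 bases apart with 0 protein-coding genes between them. Each has 4 exons in its canonical transcript. Their promoters are shown beside the 2 annotated starts of *TUBB6*, the member that was higher in OE, whose counts lay on different transcripts in the 2 groups. The sequences run from 250 bases before to 50 after the start and are RefSeq promoters on GRCh38.p14: *TUBB2B* (chr6:3227604-3227903, minus strand), *TUBB2A* (chr6:3157495-3157794, minus strand), *TUBB6* upstream start (chr18:12307419-12307718, plus strand) and *TUBB6* main start (chr18:12307991-12308290, plus strand). Capitals mark 4 motifs searched on both strands, TATAAA (known as the TATA box), CCAAT (the box named after its letters), GGGCGG (known as the GC box) and TGACG (the core of the cAMP response element), with overlapping matches run together.
TUBB2B: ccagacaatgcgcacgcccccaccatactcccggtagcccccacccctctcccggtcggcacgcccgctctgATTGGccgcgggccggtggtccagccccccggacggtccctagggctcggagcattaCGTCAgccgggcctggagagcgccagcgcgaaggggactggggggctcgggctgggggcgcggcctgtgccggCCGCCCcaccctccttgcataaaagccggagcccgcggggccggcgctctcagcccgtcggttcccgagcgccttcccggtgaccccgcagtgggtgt
TUBB2A: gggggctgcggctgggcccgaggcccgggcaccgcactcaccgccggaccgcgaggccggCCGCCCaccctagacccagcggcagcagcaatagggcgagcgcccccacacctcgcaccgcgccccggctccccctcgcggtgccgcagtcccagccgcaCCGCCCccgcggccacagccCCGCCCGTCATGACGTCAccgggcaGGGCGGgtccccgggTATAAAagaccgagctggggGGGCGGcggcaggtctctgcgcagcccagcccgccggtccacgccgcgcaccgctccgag
TUBB6, upstream start: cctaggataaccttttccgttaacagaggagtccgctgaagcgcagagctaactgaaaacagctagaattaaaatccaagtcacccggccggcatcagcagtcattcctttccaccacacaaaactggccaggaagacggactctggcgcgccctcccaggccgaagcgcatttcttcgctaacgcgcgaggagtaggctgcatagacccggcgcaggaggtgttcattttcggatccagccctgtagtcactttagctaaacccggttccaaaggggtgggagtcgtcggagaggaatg
TUBB6, main start: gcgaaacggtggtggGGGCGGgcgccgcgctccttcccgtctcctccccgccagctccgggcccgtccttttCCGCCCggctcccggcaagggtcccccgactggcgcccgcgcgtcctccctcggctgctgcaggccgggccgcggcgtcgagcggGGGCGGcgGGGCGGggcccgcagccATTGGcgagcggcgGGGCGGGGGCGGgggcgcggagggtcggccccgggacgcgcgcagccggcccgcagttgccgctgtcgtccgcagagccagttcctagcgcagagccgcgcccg
TATAAA occurred in 11.5% of all 35116 RefSeq promoters, CCAAT in 34.6%, GGGCGG in 45.0% and TGACG in 24.6%. The *TUBB2B* window held 1 CCAAT, 1 GGGCGG and 1 TGACG, whereas that of *TUBB2A* held 1 TATAAA, 5 GGGCGG and 3 TGACG and no CCAAT. At the main start of *TUBB6* there were 1 CCAAT and 6 GGGCGG, and at its upstream start none of the 4 motifs. These matches are a description of the letters only.

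The libraries held 23785164 and 24098041 counts (vector control) and 24601728 and 28307591 counts (OE), with 6.01% to 6.50% on mitochondrial genes. *RP5-998N21.4* itself had 32 and 33 counts in the controls and 2407 and 2808 in OE, a log2 fold change of 6.11 ± 0.11 (SE; edgeR, adjusted p = 0.0109). Of the genes used as markers of the line, the adrenergic ones of the neuroblastic cells and the mesenchymal ones of the adherent cells were both expressed, except *TH*, which did not pass the filter on low counts. Genes of blood, epithelium, liver, glia and red cells had at most 118 counts in any library. At the study's thresholds (adjusted p under 0.01, absolute log2 fold change above 0.5) edgeR called 0 of 20528 genes (0%), whereas at an unadjusted p under 0.05 2069 were higher and 2200 lower, and DESeq2 at the study's thresholds called 893 higher (4.35%) and 907 lower (4.42%) and limma-voom 0.

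*TUBB2B*, a beta-tubulin of migrating and growing neurons, showed the largest difference of the members. It had 2343 and 2430 counts in the controls and 59 and 62 in OE. Both OE libraries thus lay far below both controls, and all counts of every library lay on 1 transcript. The level was 102 ± 1.98 CPM (counts scaled to the library total after TMM normalization; mean ± SD, n = 2, here and for every level that follows) in the vector control and 2.25 ± 0.147 in OE, 45.4-fold lower, with a log2 fold change of -5.50 ± 0.12 (SE). In order of log2 fold change, *TUBB2B* was number 25 from the bottom of the 20528 genes tested. *PSMG4*, a proteasome assembly factor that overlaps *TUBB2B* on the other strand, had 170 and 185 counts in the controls and 245 and 281 in OE.

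*TUBB2A*, the near-identical neighbour, had 728 and 663 counts in the controls and 322 and 484 in OE. Its libraries did not overlap between the groups either, and its level was 29.7 ± 2.16 CPM against 14.8 ± 2.76 CPM, a log2 fold change of -1.01 ± 0.18. In the vector control *TUBB2B* held 3.22 and 3.67 counts for each count of *TUBB2A*, and in OE 0.183 and 0.128. The order of the pair was therefore opposite in the 2 groups. Summed, the pair had 3071 and 3093 counts in the controls and 381 and 546 in OE, that is 132 ± 0.178 CPM against 17.0 ± 2.61 CPM. The sum was 7.74-fold lower in OE (log2 fold change -2.95 ± 0.15), and it does not depend on how reads were divided between both copies.

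*TUBB3*, the class III beta-tubulin used as a neuronal marker, had 7412 and 7986 counts in the controls and 2300 and 2696 in OE. Both OE libraries lay below both controls, at 329 ± 15.2 CPM against 92.4 ± 1.09 CPM (log2 fold change -1.83 ± 0.07). The second gene ID of *TUBB3*, which overlaps the first on the same strand, was listed at 0 in every library. *TUBB3* lies on chromosome 16, 89987800 to 90005169, plus strand.

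*TUBB6*, a widely expressed class V beta-tubulin on chromosome 18 (12307668 to 12344319, plus strand), was the 1 member above the vector control in OE. It had 660 and 720 counts in the controls and 4039 and 4855 in OE. The groups were far apart, at 29.5 ± 1.63 CPM against 164 ± 4.87 CPM, 5.57-fold higher in OE (log2 fold change 2.48 ± 0.09). *AFG3L2*, a mitochondrial protease gene on the opposite strand that overlaps *TUBB6*, had 1131 and 1146 counts in the controls and 1328 and 1327 in OE.

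*TUBB4B*, a ubiquitous beta-tubulin on chromosome 9 (140135739 to 140138159, plus strand), had 6828 and 10197 counts in the controls and 6637 and 7522 in OE. Its controls stood further apart than vector control replicate 1 stood from the OE libraries, with 364 ± 99.5 CPM against 262 ± 3.15 CPM. The log2 fold change was -0.47 ± 0.21, and -0.17 without vector control replicate 2. Both OE libraries still lay below both controls.

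*TUBB*, the common class I beta-tubulin on chromosome 6 (30685212 to 30693315, plus strand), was listed at 0 in all 4 libraries. *MDC1*, a DNA damage response gene that overlaps its start on the other strand, was listed at 0 as well. Of the other protein-coding genes within 1 Mb of *TUBB*, 67 of 73 were at 0 in every library (91.8%), against 18.6% of all 19405 protein-coding genes in the table. The zeros of *TUBB* therefore stand in a region where most genes had no counts, and they give no level for the gene. *TUBBP1*, a processed pseudogene of *TUBB* in which the *TUBB* coding sequence is found at 97.4% identity, had 16850 and 15431 counts in the controls and 9556 and 12377 in OE. That was 690 ± 47.3 CPM against 404 ± 33.3 CPM, a log2 fold change of -0.77 ± 0.09, and whether these reads came from *TUBB* was not tested.

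The alpha-tubulin genes were lower in OE by a smaller factor than *TUBB2B* and *TUBB3*. *TUBA1B*, the most abundant member, had 26028 and 27857 counts in the controls and 15387 and 18805 in OE, or 1152 ± 47.9 CPM against 632 ± 26.1 CPM (log2 fold change -0.87 ± 0.06). *TUBA1A*, the main alpha-tubulin of young neurons, had 10878 and 11538 counts in the controls and 6681 and 8079 in OE, or 479 ± 16.9 CPM against 273 ± 9.23 CPM (log2 fold change -0.81 ± 0.06). In both genes the groups did not overlap and the log2 fold changes were within 1 SE of each other. *TUBA1C* was low, with 94 and 102 counts in the controls and 76 and 86 in OE (log2 fold change -0.48 ± 0.17). It overlaps *TUBA1A* on the opposite strand, so reads of both genes may not be told apart. Most *TUBA1C* counts lay on ENST00000552448, annotated for nonsense-mediated decay (84 and 102 in the controls, 62 and 78 in OE). The rest lay on ENST00000549554, which has no defined coding sequence. *TUBA4A* had 397 and 376 counts in the controls and 100 and 270 in OE. Its 2 OE libraries differed from each other, at 6.66 ± 3.78 CPM after 16.5 ± 0.741 CPM in the vector control (log2 fold change -1.31 ± 0.46), and both still lay below the controls. Without OE replicate 2 its log2 fold change was -2.05, and without OE replicate 1 -0.82. *TUBA1A*, *TUBA1B* and *TUBA1C* neighbour each other on chromosome 12 and their coding sequences were 96.0% to 97.3% identical, and their sum was 1635 ± 65.0 CPM in the vector control and 907 ± 35.2 CPM in OE (log2 fold change -0.85 ± 0.05).

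**Figure D1:**
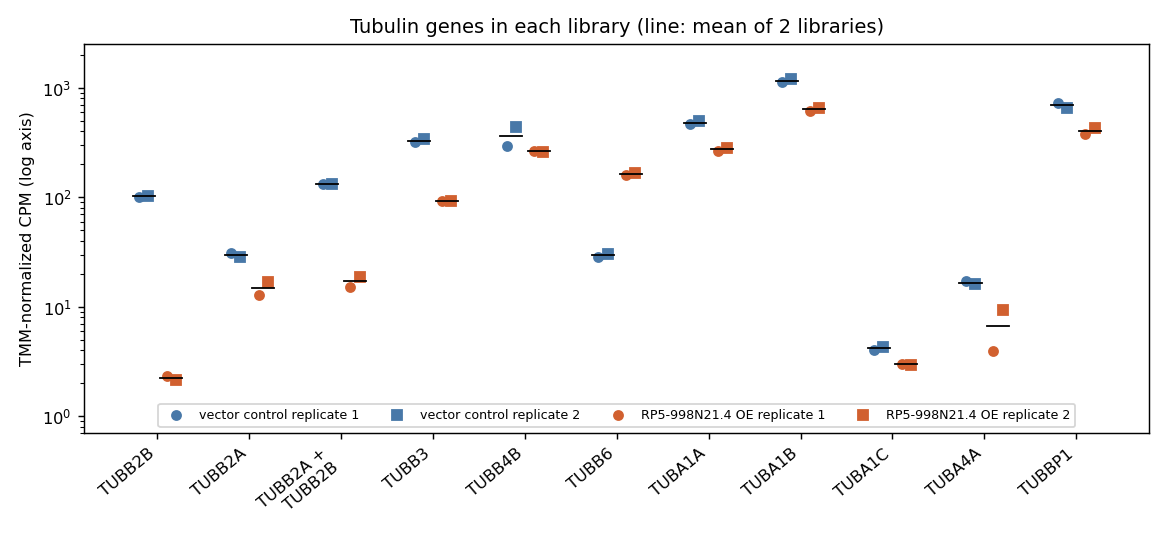
TMM-normalized CPM (log axis) of 9 tubulin members, of *TUBB2A* and *TUBB2B* summed and of the pseudogene *TUBBP1* in each library, where circles are replicate 1, squares replicate 2 and lines the mean of 2 libraries. *TUBB2B* lies at 102 CPM in the vector control and 2.25 CPM in OE, *TUBB6* lies above its controls at 164 CPM, and the 2 *TUBA4A* libraries of OE stand apart from each other; *TUBB* is listed at 0 and not drawn.

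Of the 11 gene IDs, 9 passed the filter on low counts. In 8 of them both OE libraries lay below both controls, as for 27.6% of all genes tested, and in 1 both lay above, as for 27.8%. These shares are given only beside the counts, because the members were chosen on this contrast. All members together had 2506 ± 180.4 CPM in the vector control and 1450 ± 44.4 CPM in OE (log2 fold change -0.79 ± 0.07), and with *TUBBP1* added the log2 fold change was -0.79 ± 0.05. The beta members summed to a log2 fold change of -0.67 ± 0.11 and the alpha members to -0.85 ± 0.06. In a bulk sample, fewer cells of a type and less RNA per cell cannot be told apart.

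**Figure D2:**
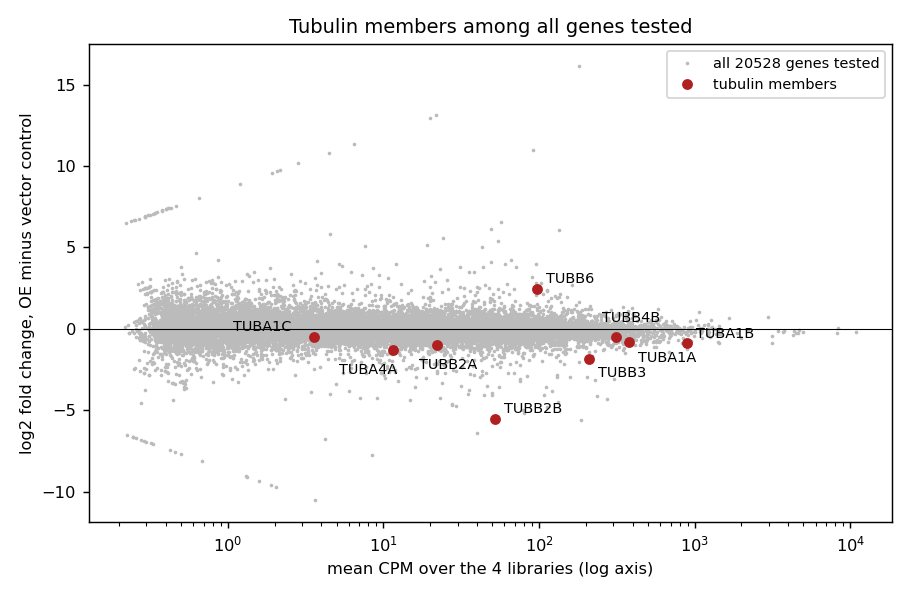
The log2 fold change (OE minus vector control) against the mean CPM over the 4 libraries (log axis) for the 20528 genes tested (grey) and the 9 tubulin members among them (red). *TUBB2B* at -5.50 and *TUBB6* at 2.48 lie at the edge of the genes of similar level, and the other 7 members lie between -1.83 and -0.47; the lines of grey points at the far top and bottom left are mostly genes without counts in 1 group.

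Levels were compared between genes per length, in TPM (the CPM of a transcript divided by its length and rescaled to the same total) with the mean length of the transcripts that held the counts. Among the beta members of a library, *TUBB2B* held 12.5% and 9.47% of the TPM in the vector control and 0.460% and 0.360% in OE. *TUBB6* held 9.80% and 8.03% in the vector control and 29.8% and 27.2% in OE. *TUBB3* held 38.8% and 30.5% in the vector control and 17.7% and 15.4% in OE. On average *TUBB2B* held 11.0 ± 2.11% in the vector control and *TUBB6* 8.91 ± 1.25%, whereas in OE *TUBB6* stood second and *TUBB2B* last of those with counts, at either choice of length. This order and these shares leave out *TUBB*, whose zeros give no level, and *TUBBP1*, which had 595 ± 97.7 TPM in OE. In TPM, where the other isotypes do not enter, the vector control had 106 ± 0.0442 of *TUBB2B* and 86.7 ± 4.63 of *TUBB6*. *TUBB4B* held 41.6 ± 10.3% in the vector control and 51.4 ± 3.21% in OE. *TUBB2A* held 3.84 ± 1.08% and 3.16 ± 0.249%. A lower total of the others raises the share of a gene, so shares are not levels. In TPM, *TUBB6* had 171 ± 10.8 in OE, and *TUBB4B* had 420 ± 180.7 in the vector control and 310.1 ± 58.5 in OE.

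Of the alpha isotypes, *TUBA1B* stood first and *TUBA1A* second in every library. *TUBA1B* held 65.6 ± 7.26% of the alpha TPM in the vector control and 66.8 ± 4.07% in OE, and *TUBA1A* 33.3 ± 6.98% and 32.2 ± 3.75%. These shares differed between the groups by less than their spread, which follows the transcripts that held the *TUBA1B* counts. With the longest transcript as length the spread was smaller and *TUBA1B* held 65.4 ± 0.204% and 64.8 ± 0.121%, *TUBA1A* 33.1 ± 0.108% and 34.0 ± 0.319%, so that both differed by more than their spread but by less than 1 percentage point. *TUBA1C* held 0.303 ± 0.102% and 0.425 ± 0.0189%, and *TUBA4A* 0.796 ± 0.180% and 0.533 ± 0.337%, and their order in OE replicate 1 depended on the length used. No test was run on the shares, since an exact permutation of 2 and 2 libraries cannot reach p = 0.05.

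With the longest listed transcript as length, the *TUBB6* share was 3.59 ± 0.318% in the vector control and 30.6 ± 0.570% in OE, and its TPM was 29.7 ± 1.09 against 173 ± 8.20. The size of the *TUBB6* difference per length thus depended on which transcript was taken, while its direction did not. With *TUBBP1* counted as a beta-tubulin, it held 49.7 ± 8.64% of the beta TPM in the vector control and 49.7 ± 0.945% in OE. The share of *TUBB2B* was then 5.42 ± 0.113% against 0.207 ± 0.0397%, and that of *TUBB6* 4.43 ± 0.143% against 14.4 ± 1.19%.

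**Figure D3:**
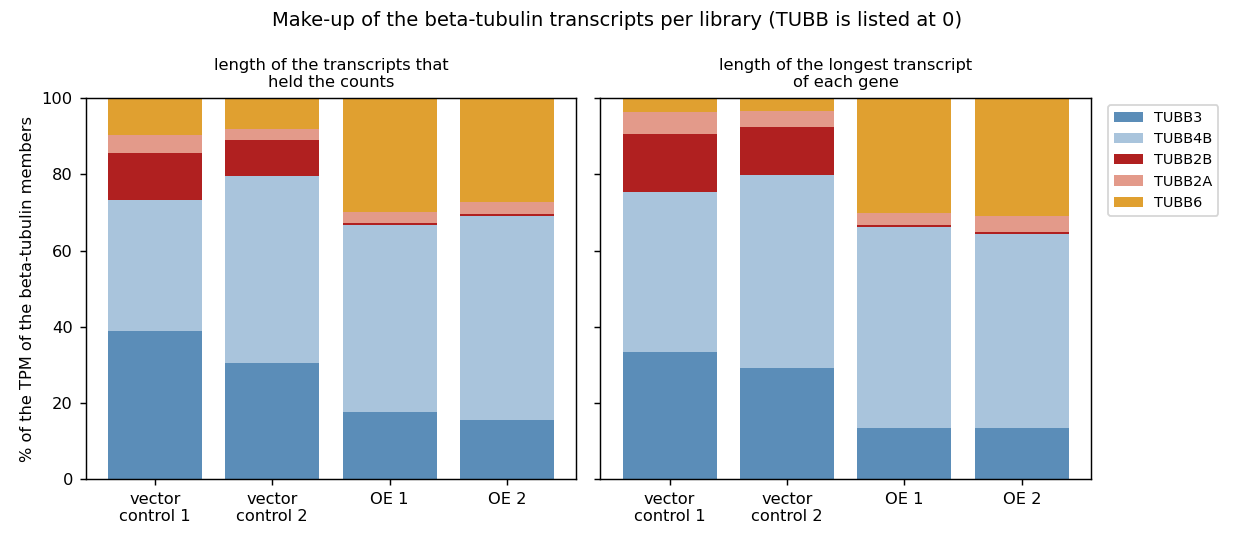
Share of the beta-tubulin TPM held by 5 members in each library, as stacked bars from 0 to 100%, with the length of the transcripts that held the counts (left) and of the longest transcript (right); *TUBB* is listed at 0. At the left *TUBB2B* holds on average 11.0% in the vector control and 0.410% in OE, and *TUBB6* 8.91% and 28.5%; at the right *TUBB6* holds less than *TUBB2A* in the vector control.

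The table listed 77 transcripts of the members, of which 26 held counts, and the placement of counts on them varied. *TUBB6* counts lay in the vector control mostly on ENST00000590693, a short transcript of 524 bases from the upstream start, with 387 and 435 counts, where OE had 0 and 0. In OE they lay on ENST00000417736, a transcript of 2163 bases annotated as a retained intron, with 3803 and 4481 counts against 77 and 59. ENST00000591909 had 171 and 202 counts in the controls and 206 and 330 in OE. The canonical coding transcript ENST00000317702 held at most 3 counts in any library, so the higher *TUBB6* count of OE was not placed on the canonical coding model. Whether the reads came from the transcript on which they were placed was not tested. Both libraries of a group shared the same placement here.

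In *TUBB4B* the placement followed the replicate number instead of the group. The coding transcript ENST00000340384 held 8 counts in vector control replicate 1 and 97 in OE replicate 1, but 10193 and 7519 in the replicates 2. ENST00000604929, annotated as a retained intron, held 6820 and 6540 counts in the replicates 1 and 4 and 3 in the replicates 2. In *TUBA1B* the coding transcript ENST00000336023 held 6264 and 27304 counts in the controls and 15387 and 9349 in OE, with most of the rest on the retained intron ENST00000332858. Only the sums per gene are comparable for these genes, and the cause of the placement was not tested.

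Most *TUBB3* counts lay on ENST00000554444, a coding transcript with an upstream start, with 6739 and 7504 counts in the controls and 1860 and 2421 in OE. Its canonical transcript ENST00000315491 had 673 and 482 counts in the controls and 0 and 275 in OE. *TUBA1A* lay almost wholly on its canonical transcript ENST00000301071, with 10632 and 11220 counts against 6579 and 8003. For *TUBB2B*, *TUBB2A* and *TUBA1A* the difference therefore did not involve a change of transcript.

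**Figure D4:**
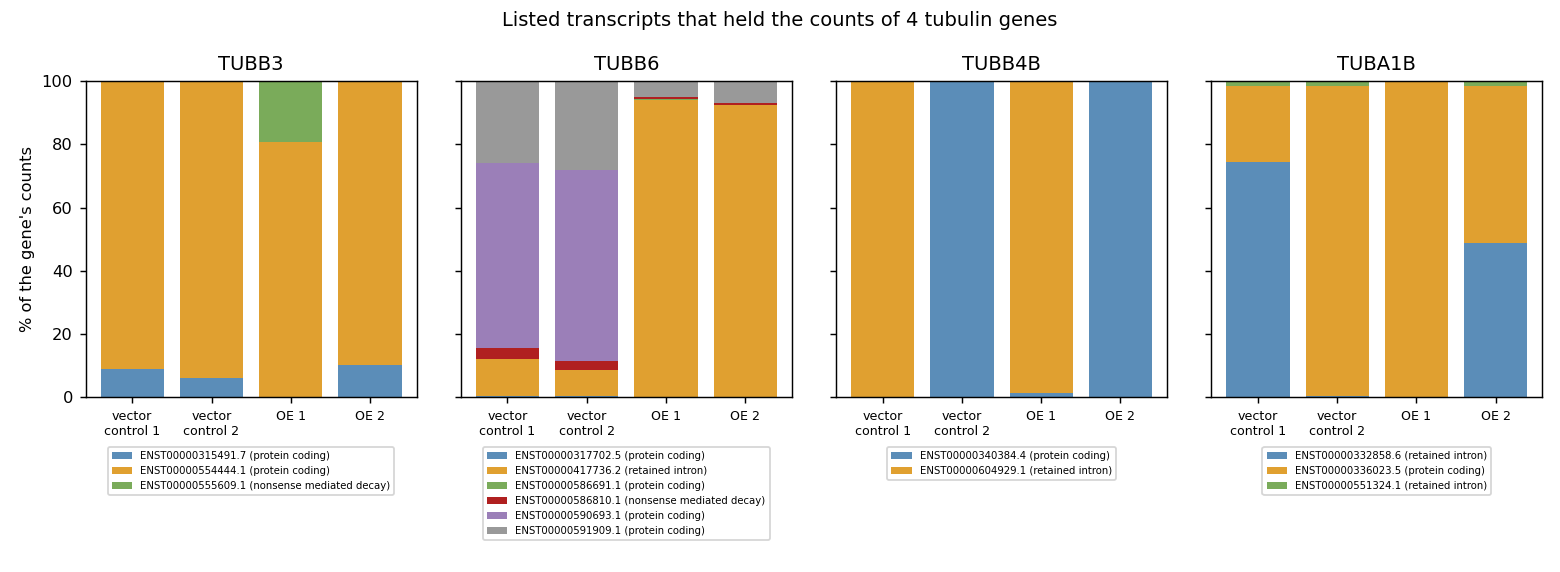
Share of each gene's counts (0 to 100%) on its listed transcripts in the 4 libraries, for *TUBB3*, *TUBB6*, *TUBB4B* and *TUBA1B*. *TUBB6* changes transcript with the group, *TUBB4B* with the replicate number, and *TUBA1B* with neither, while ENST00000554444 holds 80.9% to 94.0% of the *TUBB3* counts in every library.

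The remaining tubulin genes were mostly low. Of 13 (gamma-, delta- and epsilon-tubulin and the rarer alpha and beta genes), 9 passed the filter, and at an unadjusted p under 0.05 (edgeR and limma-voom) 1 was higher and 0 were lower, where 10.1% of all genes tested were higher and 10.7% lower. By DESeq2 2 were higher and 1 lower at that p. The 1 was *TUBE1*, epsilon-tubulin of the centriole, with 1110 and 1012 counts in the controls and 1618 and 2133 in OE (log2 fold change 0.61 ± 0.12, edgeR adjusted p = 0.121). *TUBG1*, the gamma-tubulin that nucleates microtubules, had 460 and 533 counts against 445 and 501 (log2 fold change -0.28 ± 0.13, edgeR adjusted p = 0.323). The median log2 fold change of the 9 was 0.07, against 0.01 over all genes tested, and it was -0.06 without vector control replicate 1 or without OE replicate 2.

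Of 22 genes listed for tubulin folding (tubulin cofactors, prefoldin and the CCT chaperonin, with *TTC5*, which acts on tubulin mRNA instead), 21 were tested. At an unadjusted p under 0.05, 3 were higher and 0 lower by edgeR, DESeq2 and limma-voom alike, where 10.1% and 10.7% of all genes tested were by edgeR, and their median log2 fold change was 0.17. By DESeq2 3 also passed an adjusted p under 0.05, as did 9.32% of all genes in that direction. Without OE replicate 1, 1 was higher and 2 were lower by edgeR, with a median of 0.06. *TTC5*, the factor that recognises nascent tubulin and starts the decay of tubulin mRNA when free tubulin is in excess, had 363 and 332 counts in the controls and 610 and 829 in OE (log2 fold change 0.83 ± 0.14, edgeR adjusted p = 0.103). *TBCC*, a cofactor of dimer assembly, had 1037 and 1049 counts against 1512 and 1621 (log2 fold change 0.38 ± 0.09, edgeR adjusted p = 0.151). The most abundant of them, the chaperonin subunits *CCT6A* and *CCT3*, had log2 fold changes of -0.07 ± 0.07 and -0.12 ± 0.09. *PFDN6*, the 1 not tested, lies on chromosome 6 and was listed at 0 in every library, like *TUBB*.

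Of 20 genes that add or remove tubulin modifications, 18 were tested, with a median log2 fold change of 0.00. At an unadjusted p under 0.05, 0 were higher and 2 lower by edgeR, DESeq2 and limma-voom alike (10.1% and 10.7% of all genes by edgeR), and 0 were lower by edgeR when any 1 library was left out. Those 2 were *CCDC23*, the older symbol of *SVBP*, the partner of the detyrosinating vasohibins (-0.52 ± 0.17, edgeR adjusted p = 0.219), and the glutamylase *TTLL5* (-0.33 ± 0.11, edgeR adjusted p = 0.237). *TTL*, the tyrosine ligase and most abundant of them, had 3572 and 3348 counts in the controls and 3819 and 4307 in OE (0.03 ± 0.08). *TTLL12* was at 0.00 ± 0.10. Of the 13 genes of microtubule nucleation, 0 were higher and 0 lower at an unadjusted p under 0.05 by edgeR and limma-voom (1 was lower by DESeq2), beside the same 10.1% and 10.7% of all genes. Their median was -0.19, and -0.08 without vector control replicate 1 or OE replicate 2 and -0.11 without vector control replicate 2. Without vector control replicate 1 or OE replicate 1, 2 passed by edgeR. The most abundant were *MZT1* (-0.04 ± 0.08) and *PCNT* (-0.04 ± 0.10).

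Genes of proteins that bind microtubules were found on both sides. Of 32, all tested, 6 were higher and 5 lower at an unadjusted p under 0.05 (edgeR; 10.1% and 10.7% of all genes), with a median log2 fold change of 0.05, and 1 in each direction passed an adjusted p under 0.05, where 0.283% of all genes were higher and 0.312% lower. By DESeq2 6 in each direction passed that adjusted p, where 9.32% of all genes were higher and 10.5% lower. *DCX*, doublecortin of migrating neurons, had 1456 and 1387 counts in the controls and 3820 and 4828 in OE (log2 fold change 1.39 ± 0.09, edgeR adjusted p = 0.0415). *MAP1A*, a stabiliser of mature dendrites, had 9346 and 9040 counts in the controls and 5405 and 6336 in OE (-0.86 ± 0.06, edgeR adjusted p = 0.0415). *MAP1B*, its relative of growing axons and the most abundant of the list, had 36583 and 33976 counts against 30821 and 36142 (-0.28 ± 0.06, edgeR adjusted p = 0.119). The adjusted calls of *DCX* and *MAP1A* by edgeR were lost when any 1 library was left out, with the replicate block and with the top transcript of each gene. In OE, *DCX* was thus higher and *MAP1A* lower, so genes of neurons in this list lay on both sides.

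**Figure D5:**
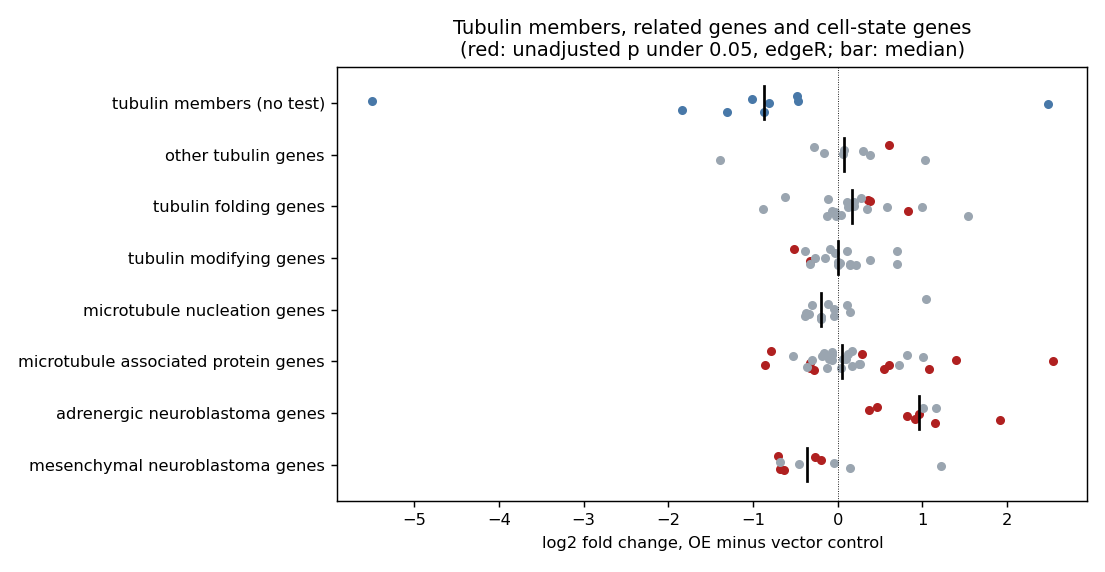
The log2 fold change (OE minus vector control) of the 9 tested tubulin members (blue, no test) and of the tested genes of 7 lists, red where the unadjusted edgeR p was under 0.05, with a black bar at each median. The members' median is -0.87, those of the tubulin and microtubule lists lie between -0.19 and 0.17, and those of the adrenergic and mesenchymal genes at 0.96 and -0.36; points are spread vertically only to separate them.

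Genes of both cell kinds of the line were also compared. These lists, like those above, were chosen with earlier results of these data known, so the numbers that passed are a description. Of 10 adrenergic genes 9 were tested, and at an unadjusted p under 0.05 7 were higher and 0 lower by edgeR, DESeq2 and limma-voom alike (10.1% and 10.7% of all genes by edgeR). At an adjusted p under 0.05, 1 was higher by edgeR (0.283% of all genes), 7 by DESeq2 (9.32%) and 1 by limma-voom, and 0 were lower by each. With the replicate block or the top transcript of each gene, 0 were higher at that adjusted p by edgeR. Both OE libraries lay above both controls in 9 of 9, as for 27.8% of all genes. The most abundant, *HAND2* and *GATA2*, were at 0.47 ± 0.08 and 0.37 ± 0.06 (edgeR adjusted p = 0.110 and 0.0987). The summed level of the list was 557 to 626 CPM in the vector control and 904 to 949 CPM in OE. Of 10 mesenchymal genes 0 were higher and 5 lower at an unadjusted p under 0.05 by edgeR and limma-voom (by DESeq2 1 was higher and 5 lower), and at an adjusted p under 0.05 0 passed by edgeR (0.283% of all genes higher, 0.312% lower), 6 by DESeq2 (9.32% and 10.5%) and 1 by limma-voom, with a median of -0.36 and a summed level of 3630 to 3734 CPM in the vector control and 2517 to 4045 CPM in OE. Without OE replicate 2, 1 was higher, also at an adjusted p under 0.05, and 3 were lower by edgeR, with a median of -0.22. With the replicate block 3 were lower. *CD44*, a cell surface receptor, had a log2 fold change of -0.71 ± 0.07 and *SNAI2*, a transcription factor of mesenchymal cells, one of -0.68 ± 0.09 (edgeR adjusted p = 0.0615 and 0.0780). The 2 most abundant mesenchymal genes split the OE libraries, with 31466 and 10869 counts of *VIM* and 22155 and 9422 of *COL1A1*. Of the members, *TUBA4A* split them most, with 100 and 270 counts, and the part of these cell kinds in the tubulin values was not tested.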

How the data were processed

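The 4 SK-N-SH RNA-seq libraries were grouped by their treatment label. The authors deposited counts for each transcript, whole numbers that were not normalized. Their reads were trimmed with Trimmomatic and aligned to hg19, and the submitters' processing notes name Bowtie2 2.0.4, Picard 2.21.6, StringTie 2.1.6 and DESeq2. The tool that made the counts, its annotation and its use of strand are not given in the sources used here, so reads of overlapping genes on opposite strands may not be told apart.

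Counts of the 196520 transcripts were summed per gene ID (57820). Genes kept by filterByExpr (20528) were normalized by TMM and fitted in edgeR 4.0.16 (R 4.3.3; quasi-likelihood test; Benjamini-Hochberg over all genes tested; no covariates). The study's methods name DESeq2, which was run as an alternative (1.42.0). SE are those of the log2 fold change. TPM used GENCODE lengths, which covered 93.2% to 93.7% of the counts. Identities came from alignments by edit distance (edlib), as 1 minus the edits over the aligned length. The capitals in the coding ends came from pairwise alignments with Biopython 1.88. The fit was tested on simulated counts. Replicate numbers did not pair the libraries (correlation of deviations -0.01 over 17601 genes).

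The members and lists were chosen with earlier results of these data known. The genes named were all members, the overexpressed gene, copies of the members with a mean of at least 10 counts, the 5 genes nearest to *TUBB2B*, and of each list those with an adjusted p under 0.05, else up to 2 per direction with the smallest unadjusted p under 0.05, with its 2 most abundant genes. Genes that overlap a member, and *PFDN6*, were named after their values were seen. For 1 gene covered by this choice, the result is left out here. Alternatives were RLE and upper-quartile normalization, DESeq2, limma-voom, 2 other filters, a replicate block, leaving out each library, the top transcript of each gene, no mitochondrial genes, another threshold and another length. Library depth (23785164 to 28307591 counts) and 2 libraries per group limit the precision.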

Additional observations from a re-analysis of the deposited data

How the results depend on the processing

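The log2 fold change of *TUBB2B* ran from -5.57 to -5.44 over the alternatives, and the direction of the 9 tested members was kept in each. The sum of *TUBB2A* and *TUBB2B* ran from -3.12 to -2.80 when 1 library was left out, the lowest without OE replicate 2. The replicate numbers are only numbers here, and with the replicate block *TUBB2B* was at -5.50, 0 tubulin modifying genes and 3 mesenchymal genes passed an unadjusted p under 0.05, and 0 microtubule associated protein genes passed an adjusted p under 0.05. Genes called over the whole table numbered 1800 by DESeq2, 9 with a minimum of 1 count in total, 1 with the transcript of the highest mean count and 122 at an adjusted p under 0.05. At an unadjusted p under 0.05, other tubulin genes numbered 3 by DESeq2, 2 with a minimum of 1 count and 1 to 2 without 1 library (2 without either control), modifying genes 1 with upper-quartile normalization or a minimum of 1 count, 0 with the top transcript and 0 without any 1 library, nucleation genes 1 by DESeq2 and 0 to 2 without 1 library (2 without vector control replicate 1 or OE replicate 1), and mesenchymal genes 2 with the top transcript. Without OE replicate 1, folding genes were 1 higher and 2 lower, and without OE replicate 2, mesenchymal genes 1 higher and 3 lower. With the longest transcript as length, *TUBB2B* held 14.0% of the beta TPM in the vector control and *TUBB6* 3.59% there and 30.6% in OE. With *TUBBP1* counted as a beta-tubulin, an alternative chosen after seeing the data, *TUBB2B* held 5.42% and 0.207% and *TUBB6* 4.43% and 14.4%. The cause of these shifts was not tested. On the top transcript alone *TUBB6* was at 5.72 and *TUBA1B* at -0.61, since other transcripts held their counts in some libraries.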

Other observations

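Among 11457 genes at 10 CPM or more on average, the 5 whose log2 CPM deviations over the 4 libraries lay nearest to those of *TUBB2B* (Euclidean distance 0.858 to 1.21) were *WAC-AS1*, *NAA60*, *CBX1*, *MFAP4* and *C20orf27*. *MFAP4*, a gene of the extracellular matrix, had 11832 and 12514 counts in the controls and 710 and 675 in OE. *CBX1*, a heterochromatin protein gene, had 5782 and 6108 counts against 389 and 214. *WAC-AS1*, an antisense RNA, had 1219 and 1267 against 62 and 49. *NAA60*, an acetyltransferase gene, had 1311 and 1172 against 67 and 49, and *C20orf27* had 1211 and 1423 against 31 and 88. Over 4 libraries this measure mainly ranks genes by the difference between the groups, and all 5 were lower in OE.

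The table listed 51 further rows of the tubulin family, 28 of them at 0 in every library. Beside *TUBBP1*, the pseudogene *TUBB3P1* had 125 and 167 counts in the controls and 65 and 66 in OE, and *TUBBP6* had 185 and 196 against 155 and 128. *TUBG1P*, a pseudogene of *TUBG1*, had 1886 and 1779 counts against 1517 and 1794, more than *TUBG1* itself in every library. *TUBA3FP* had 167 and 122 against 103 and 177. *TUBB2BP1*, *TUBB4AP1* and *TUBB8P1* had at most 26 counts in any library. Reads of these rows can come from the members they resemble.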
